A study of Rattus norvegicus with 24 samples.

Results

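The comparison described here set 3 libraries labelled α1ACT 10 d against 3 libraries labelled α1ACT 3 d, 6 of the 24 RNA libraries of a study of PC12 cells. The members were chosen by sample title, and no measured value entered the choice. PC12 is a rat line derived from an adrenal chromaffin tumour. In the α1ACT line the cells stably carried pcDNA3-α1ACT, and in the other line, given below as the vector line, they carried the empty pcDNA3. The sample titles give the α1ACT line as Q11 and the vector line as P. α1ACT is the human carboxy-terminal fragment of the P/Q-type calcium channel gene CACNA1A, which is made as a separate protein and enters the nucleus. All 8 groups, both lines at 6 h, 24 h, 3 d and 10 d, had 3 libraries, were grown in the same serum-containing medium at passages 18 to 20, and received no further treatment per the labels. Each construct is represented by a single stable line, and the labels state neither whether a line was 1 clone nor from which event the times were counted.

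The labels and the names of the deposited tables disagree. Tables were tied to samples by accession, and for 18 of the 24 libraries the table is named for another group than the label gives. The libraries labelled α1ACT 10 d are in tables named for α1ACT 10 d. Those labelled α1ACT 3 d are in tables named for α1ACT 24 h. Every value below therefore has 2 readings, 10 d against 3 d by the labels and 10 d against 24 h by the file names, and the line is α1ACT under both. The fold changes are the same under either reading, since the same 6 libraries are compared. Times written without a source are those of the labels.

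Cells that run short of amino acids, or whose endoplasmic reticulum or mitochondria are under stress, phosphorylate the initiation factor eIF2α. This slows general translation while the transcription factor ATF4 is still made, and ATF4 with its partners turns on amino acid transporters, tRNA synthetases and enzymes of serine synthesis, a programme called the integrated stress response. Genes of mitosis are switched on late in the cell cycle through CHR (TTTGAA) and CCAAT boxes in their promoters and are silenced when cells stop dividing. PC12 cells keep many traits of chromaffin cells, among them tyrosine hydroxylase, secretory granules and the transcription factors of the sympathoadrenal lineage, and they divide in serum.

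Counts on genes were 10038749, 9554891 and 8679560 in the 10 d libraries and 12727306, 11759764 and 10794357 in the 3 d libraries. Other measures of the libraries moved with the groups. Reads that met no counted gene feature made up 52.3% to 52.9% of uniquely placed reads at 10 d and 49.6% to 50.1% at 3 d. The share of counts in the 10 most counted genes was 6.89% to 7.19% at 10 d and 5.78% to 6.03% at 3 d. Alignments that were not unique numbered 95.5 to 102.9 per 100 uniquely placed reads at 10 d and 86.0 to 91.1 at 3 d. Genes with a count numbered 10941 to 11067 at 10 d and 11134 to 11217 at 3 d. Their part in the results was not tested. Chromaffin cell markers were present as labelled: 11 of 12 were in the tables, none was at 0, and their summed level was 38002 to 39656 CPM (counts scaled to library size) at 10 d and 29746 to 31690.2 CPM at 3 d. Most of that gap lay in Th and Chgb, described below. Of the 11 markers 5 rose and 2 fell, among the falls Phox2a, with a median log2 fold change of -0.048. Of 9 epithelial markers, 8 were in the tables and summed to 745 to 803 CPM at 10 d and 984 to 1235 CPM at 3 d, with Esrp1 at 0. Fibroblast markers, of which Thy1 carried nearly all the signal, summed to 839.9 to 880.1 CPM at 10 d and 836 to 870.4 CPM at 3 d, with Col1a2, Lum, Pdgfrb, Fap and Postn at 0. Immune markers summed to 1.80 to 2.12 CPM at 10 d and 2.11 to 2.77 CPM at 3 d, with Ptprc and Aif1 at 0, and Schwann and glial markers to 63.8 to 65.5 CPM at 10 d and 70.1 to 73.2 CPM at 3 d, with Sox10 and Mag at 0. The labels do not say whether replicates were separate cultures, and p-values reflect only how these libraries varied. Means are given ± SD over the 3 libraries of a group.

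Of 9994 genes tested, 4454 passed an adjusted p of 0.05 between 10 d and 3 d (44.6%), 2179 of them higher at 10 d (21.8%) and 2275 lower (22.8%). The test was edgeR's quasi-likelihood test with Benjamini-Hochberg adjustment over all tested genes. At least 2-fold changes were fewer, 288 genes (2.88%). The 3 libraries of each group did not overlap for 5371 genes (53.7%), 4264 of them among the genes that passed. So large a share of called genes means that most gene lists hold some, and each list below is read against these percentages. The lists were written with earlier results of these data known, so a list that moved together here is a description. Levels are given in CPM after scaling of library sizes, which does not correct for gene length. Differences are log2 fold changes of 10 d over 3 d, positive where the gene was higher at 10 d.

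The largest changes were ranked only among called genes whose 10 d and 3 d libraries did not overlap. Their separation was therefore fixed by the choice. The 12 largest rises included 4 genes of the integrated stress response list (Chac1, Ddit3, Stc2 and Atf5) and the amino acid exchanger gene Slc7a11. Inhbe, which encodes an activin subunit, had 5.31, 8.05 and 3.64 CPM in the 10 d libraries, against 0.0769, 0.0842 and 0.182 CPM in the 3 d libraries. At 3 d it lay under the floor of 3 counts per library, so its change is given from summed counts, 160 at 10 d and 4 at 3 d, as a depth-scaled ratio of 49.9 with an exact 95% interval of 19.1 to 185, which covers counting error only. Slc7a11, the light chain of the cystine and glutamate exchanger, had 149, 169 and 80.3 CPM in the 10 d libraries, against 4.77, 6.99 and 7.57 CPM in the 3 d libraries (log2 fold change 4.38 ± 0.276 SE, adjusted p = 4.53e-12). Of its 10 d libraries, replicate 3 was the lowest. Chac1, an enzyme that degrades glutathione, had 71.3, 84.5 and 56.8 CPM in the 10 d libraries, against 6.0, 4.29 and 3.74 CPM in the 3 d libraries (log2 fold change 3.90 ± 0.155 SE, adjusted p = 1.17e-15). Ddit3, which encodes the stress transcription factor CHOP, had 219, 239 and 208 CPM in the 10 d libraries, against 30.1, 31.2 and 32.5 CPM in the 3 d libraries (log2 fold change 2.83 ± 0.0952 SE, adjusted p = 4.44e-17). The spread of Ddit3 within each group was small beside the gap between the groups.

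Stc2, a secreted glycoprotein of the stanniocalcin family, had 343, 426 and 274 CPM in the 10 d libraries, against 54.1, 61 and 55.6 CPM in the 3 d libraries (log2 fold change 2.61 ± 0.142 SE, adjusted p = 4.15e-13). Atf5, a transcription factor related to ATF4, had 436, 505 and 338 CPM in the 10 d libraries, against 87.1, 96.4 and 88.4 CPM in the 3 d libraries (log2 fold change 2.23 ± 0.192 SE, adjusted p = 1.21e-09). Adm2, which encodes the peptide hormone intermedin, had 29.6, 37.2 and 31.3 CPM in the 10 d libraries, against 3.77, 3.54 and 4.1 CPM in the 3 d libraries (log2 fold change 3.10 ± 0.162 SE, adjusted p = 2.03e-13). As required of every rise in this ranking, each 10 d library was above the highest 3 d library. Creb3l1, a membrane-bound transcription factor of the endoplasmic reticulum, was low, with 4.71, 4.56 and 3.76 CPM in the 10 d libraries, against 0.846, 0.505 and 0.912 CPM in the 3 d libraries (log2 fold change 2.52 ± 0.367 SE, adjusted p = 4.34e-06). Stbd1, a glycogen-binding protein, had 86.3, 82 and 83.7 CPM in the 10 d libraries, against 14.4, 12.2 and 14 CPM in the 3 d libraries (log2 fold change 2.63 ± 0.165 SE, adjusted p = 4.53e-12). Casp4, an inflammatory caspase, had 34.2, 35.7 and 22.3 CPM in the 10 d libraries, against 2.77, 2.02 and 3.65 CPM in the 3 d libraries (log2 fold change 3.46 ± 0.297 SE, adjusted p = 1.14e-09).

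The remaining large rises were Rgs2 and Trim66, both low and variable. Rgs2, a regulator of G protein signalling, had 12.5, 7.31 and 19.4 CPM in the 10 d libraries, against 0.846, 1.52 and 0.729 CPM in the 3 d libraries (log2 fold change 3.64 ± 0.368 SE, adjusted p = 1.87e-08). Trim66, a chromatin-binding protein of the tripartite motif family, had 6.82, 4.34 and 2.11 CPM in the 10 d libraries, against 0.308, 0.168 and 0.547 CPM in the 3 d libraries (log2 fold change 3.71 ± 0.462 SE, adjusted p = 4.56e-07). The choice required groups without overlap, but the 10 d libraries of each gene differed among themselves by more than 2-fold.

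**Figure D1:**
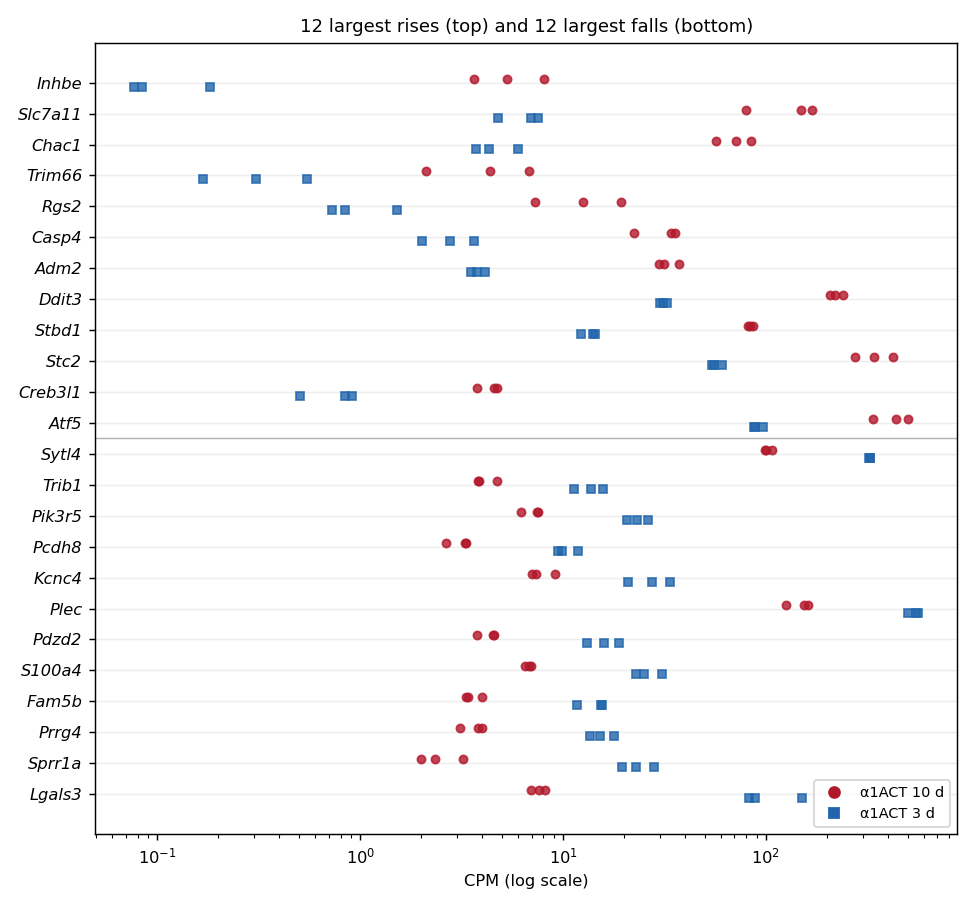
CPM on a log axis of the 12 genes with the largest rise (top) and the 12 with the largest fall (bottom), with a red circle for each 10 d library and a blue square for each 3 d library. Genes were picked only where the groups did not overlap, and the 10 d points of Rgs2 and Trim66 are spread more widely than those of Ddit3 or Stbd1.

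The plot of the largest changes shows each library as its own point. Among the falls, Lgals3 stood furthest from its 3 d level, with Sprr1a next.

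Across the list of the integrated stress response, 20 of 21 tested members rose and none fell, with a median log2 fold change of 1.47 beside 9.2e-06 over all tested genes. The exception, Got1, a cytosolic aminotransferase named after its value was seen, averaged 80.6 ± 8.85 CPM at 10 d and 73 ± 6.75 CPM at 3 d (SD, n = 3 each; adjusted p = 0.186). Atf4 itself had 928, 1004 and 817 CPM in the 10 d libraries, against 216, 257 and 222 CPM in the 3 d libraries (log2 fold change 1.98 ± 0.106 SE, adjusted p = 3.13e-13). Trib3, a pseudokinase that is induced by ATF4 and CHOP, had 213, 255 and 173 CPM in the 10 d libraries, against 52.7, 53.9 and 45.5 CPM in the 3 d libraries (log2 fold change 2.07 ± 0.0966 SE, adjusted p = 2.81e-14). Asns, asparagine synthetase, averaged 338 ± 44.4 CPM at 10 d and 164 ± 3.89 CPM at 3 d (SD, n = 3 each; adjusted p = 2e-09) and is another member named after its value was seen.

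Enzymes and carriers that supply amino acids rose with them. Of 9 tested genes of serine synthesis and one-carbon metabolism, 7 rose and 1 fell. The falls were 0 without 10 d replicate 1 or 3 d replicate 2, and 2 without 10 d replicate 3. Psat1, the aminotransferase of serine synthesis, had 282, 323 and 199 CPM in the 10 d libraries, against 66.1, 70.4 and 67.6 CPM in the 3 d libraries (log2 fold change 1.98 ± 0.124 SE, adjusted p = 4.53e-12). Phgdh, the first enzyme of that pathway, had 113, 127 and 95.9 CPM in the 10 d libraries, against 36.9, 29.3 and 40.1 CPM in the 3 d libraries (log2 fold change 1.66 ± 0.132 SE, adjusted p = 3.19e-10). Mthfd2 and Shmt2 act in the mitochondrial folate cycle. Mthfd2 had 179, 204 and 139 CPM in the 10 d libraries, against 58.8, 52 and 55.1 CPM in the 3 d libraries (log2 fold change 1.65 ± 0.0955 SE, adjusted p = 9.67e-13), and Shmt2 averaged 186 ± 12.7 CPM at 10 d and 93.2 ± 2.07 CPM at 3 d (SD, n = 3 each). The member that fell and the member that passed in neither direction belong to the cytosolic arm of the folate cycle. Mthfd1 averaged 141 ± 10.9 CPM at 10 d and 162 ± 3.46 CPM at 3 d (adjusted p = 0.0204). Shmt1 averaged 63.2 ± 6.02 CPM at 10 d and 67.4 ± 1.49 CPM at 3 d (adjusted p = 0.258). Both were named after their values were seen.

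Among 13 tested amino acid transporters, 8 rose and 1 fell. Slc3a2, the heavy chain shared by several exchangers, had 644, 709.6 and 553 CPM in the 10 d libraries, against 296, 311 and 292 CPM in the 3 d libraries (log2 fold change 1.09 ± 0.0739 SE, adjusted p = 2.1e-11). Its light chain Slc7a5, which carries large neutral amino acids, had 324, 347 and 247 CPM in the 10 d libraries, against 115, 115 and 119 CPM in the 3 d libraries (log2 fold change 1.39 ± 0.115 SE, adjusted p = 6.06e-10). Slc1a4, a carrier of neutral amino acids, averaged 135 ± 21.7 CPM at 10 d and 67.8 ± 1.62 CPM at 3 d (SD, n = 3 each). Slc43a2, another carrier of large neutral amino acids, went the other way at 18.7 ± 0.882 CPM at 10 d and 29.9 ± 1.74 CPM at 3 d (adjusted p = 4.52e-07; named after its value was seen).

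Of the 20 cytosolic aminoacyl-tRNA synthetases, which load amino acids onto tRNA, 15 rose and 2 fell, with a median log2 fold change of 0.61. Cars, for cysteine, had 184, 213 and 143 CPM in the 10 d libraries, against 63.3, 68.5 and 60.4 CPM in the 3 d libraries (log2 fold change 1.49 ± 0.105 SE, adjusted p = 3.54e-11). Sars, for serine, had 487, 512 and 434 CPM in the 10 d libraries, against 223, 235 and 217 CPM in the 3 d libraries (log2 fold change 1.09 ± 0.0789 SE, adjusted p = 6.93e-11). Mars, for methionine, averaged 414 ± 37.9 CPM at 10 d and 228 ± 5.84 CPM at 3 d. Aars, for alanine, averaged 509.6 ± 73.7 CPM at 10 d and 276 ± 5.38 CPM at 3 d (SD, n = 3 each). The 2 that fell were Vars and Farsa, named after their values were seen. The falls were 1 without 10 d replicate 1, 3 d replicate 1 or 3 d replicate 2. Vars, for valine, averaged 328 ± 13.9 CPM at 10 d and 408 ± 5.1 CPM at 3 d (adjusted p = 2.73e-06). Farsa, a subunit of the phenylalanine enzyme, averaged 104 ± 3.04 CPM at 10 d and 117 ± 4.14 CPM at 3 d (adjusted p = 0.0205).

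**Figure D2:**
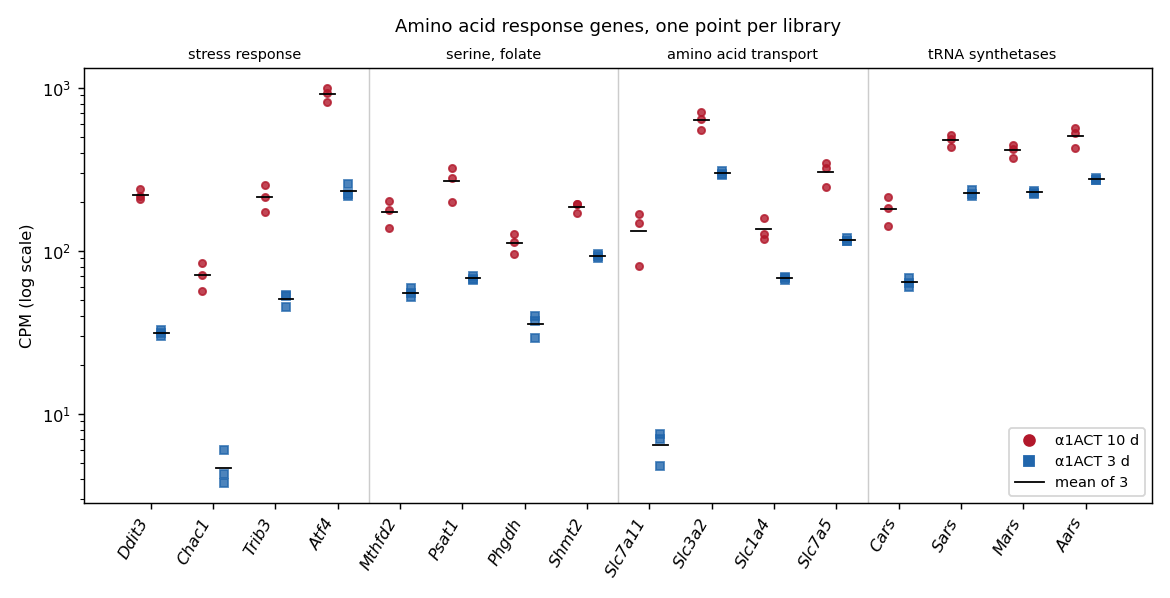
CPM on a log axis of the 4 genes with the smallest p in each of 4 lists, with red circles for the 3 libraries at 10 d, blue squares for the 3 libraries at 3 d and a black bar for each mean. All 16 genes were higher in every 10 d library, and the gap was widest for Slc7a11 and Chac1.

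In the plot of amino acid response genes, 10 d replicate 3 was the lowest of its group for all 4 transporters and all 4 synthetases shown. The same library was the lowest at 10 d for Ddit3, Chac1, Trib3, Atf4, Psat1, Phgdh and Mthfd2.

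The promoters of 3 of these genes are shown because they hold the element through which ATF4 and C/EBP proteins act on amino acid response genes, TGATGNAAT on either strand. They were the 3 members with the smallest p among those whose promoter held it, chosen after the values were seen. Capitals mark the element, written on the strand of the gene, and each stretch runs from 250 bases before the annotated start to 50 bases after the start of the gene (RefSeq, GRCr8).
Aars, chr19:55908232-55908531 (+): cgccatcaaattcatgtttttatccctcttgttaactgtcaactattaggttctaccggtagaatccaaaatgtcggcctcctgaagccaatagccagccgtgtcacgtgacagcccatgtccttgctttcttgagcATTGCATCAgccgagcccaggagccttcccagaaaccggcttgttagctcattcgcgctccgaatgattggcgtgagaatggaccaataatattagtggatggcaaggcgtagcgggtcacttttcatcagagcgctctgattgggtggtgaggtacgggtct
Iars, chr17:15193603-15193902 (-): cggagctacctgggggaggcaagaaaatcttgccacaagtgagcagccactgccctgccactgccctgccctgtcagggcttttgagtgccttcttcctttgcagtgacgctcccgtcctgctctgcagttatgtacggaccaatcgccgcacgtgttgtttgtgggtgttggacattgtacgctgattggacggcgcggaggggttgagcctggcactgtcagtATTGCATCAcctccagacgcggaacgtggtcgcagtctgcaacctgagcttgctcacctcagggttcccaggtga
Pycr1, chr10:106420763-106421062 (-): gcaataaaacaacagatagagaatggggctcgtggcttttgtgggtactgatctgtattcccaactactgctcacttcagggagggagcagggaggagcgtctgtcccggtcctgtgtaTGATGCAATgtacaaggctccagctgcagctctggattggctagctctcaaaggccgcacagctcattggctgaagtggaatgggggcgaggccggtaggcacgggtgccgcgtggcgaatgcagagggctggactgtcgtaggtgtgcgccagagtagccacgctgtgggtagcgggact

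Iars, the isoleucyl-tRNA synthetase, averaged 239 ± 31 CPM at 10 d and 134 ± 6.18 CPM at 3 d. Pycr1, which makes proline, averaged 19.5 ± 0.0219 CPM at 10 d and 10.8 ± 1.25 CPM at 3 d (SD, n = 3 each). The element was found in 2 of 17 synthetase promoters and 2 of 19 promoters of the stress response list, against 288 of 27457 promoters in the table (1.05%) and 0.494% of those of tested genes. None of the 7 promoters of the serine list and none of the 12 transporter promoters held it within these 300 bases. Such matches are a description of the letters.

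The 12 largest falls included Lgals3, Sprr1a, Plec and Sytl4. Lgals3, the carbohydrate-binding protein galectin-3, had 8.12, 6.99 and 7.63 CPM in the 10 d libraries, against 88.7, 150.3 and 82.5 CPM in the 3 d libraries (log2 fold change -3.82 ± 0.221 SE, adjusted p = 9.67e-13). Sprr1a, a small proline-rich protein induced in regenerating neurons, had 3.21, 2.33 and 2.0 CPM in the 10 d libraries, against 23, 28 and 19.6 CPM in the 3 d libraries (log2 fold change -3.21 ± 0.262 SE, adjusted p = 5.34e-10). A lack of overlap between the groups was required of the falls too. Plec, the cytoskeletal linker plectin, had 155, 126 and 162 CPM in the 10 d libraries, against 564, 500.4 and 552 CPM in the 3 d libraries (log2 fold change -1.87 ± 0.102 SE, adjusted p = 4.15e-13). Sytl4, also called granuphilin, which docks secretory granules at the membrane, had 108, 101 and 99 CPM in the 10 d libraries, against 324, 327 and 325 CPM in the 3 d libraries (log2 fold change -1.67 ± 0.094 SE, adjusted p = 7.41e-13). S100a4, a calcium-binding protein that acts on myosin, had 6.82, 6.46 and 6.92 CPM in the 10 d libraries, against 25.1, 30.8 and 22.9 CPM in the 3 d libraries (log2 fold change -1.96 ± 0.175 SE, adjusted p = 2.22e-09).

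The other large falls were in genes of low level. Kcnc4, a voltage-gated potassium channel, had 7.02, 9.11 and 7.39 CPM in the 10 d libraries, against 27.5, 33.9 and 21 CPM in the 3 d libraries (log2 fold change -1.81 ± 0.184 SE, adjusted p = 2.12e-08). Pik3r5, a regulatory subunit of phosphoinositide 3-kinase γ, averaged 7.05 ± 0.722 CPM at 10 d and 23.3 ± 2.79 CPM at 3 d. Trib1, a pseudokinase, averaged 4.13 ± 0.502 CPM at 10 d and 13.6 ± 2.14 CPM at 3 d. Prrg4, a membrane protein with a Gla domain, averaged 3.64 ± 0.467 CPM at 10 d and 15.6 ± 2.22 CPM at 3 d. Pdzd2, a protein with several PDZ domains, averaged 4.27 ± 0.45 CPM at 10 d and 16 ± 2.91 CPM at 3 d. Fam5b, a neural protein of the BRINP family, averaged 3.56 ± 0.372 CPM at 10 d and 14.2 ± 2.13 CPM at 3 d. Pcdh8, a protocadherin, averaged 3.08 ± 0.375 CPM at 10 d and 10.4 ± 1.29 CPM at 3 d (SD, n = 3 each). Log2 fold changes of these 6 genes ran from -2.10 to -1.71.

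Mitotic genes fell as a group. Of 33 tested genes of mitosis and the spindle, 23 fell and none rose, with a median log2 fold change of -0.34. Plk1, a kinase that drives mitotic entry and spindle assembly, had 33.6, 33.7 and 32.7 CPM in the 10 d libraries, against 72.5, 67.5 and 69.6 CPM in the 3 d libraries (log2 fold change -1.07 ± 0.104 SE, adjusted p = 1.02e-08). Spag5, a spindle protein also called astrin, had 115, 124 and 118 CPM in the 10 d libraries, against 204, 189 and 202 CPM in the 3 d libraries (log2 fold change -0.74 ± 0.0698 SE, adjusted p = 6.22e-09). Cdc20, an activator of the anaphase-promoting complex, had 58.5, 75.8 and 69.2 CPM in the 10 d libraries, against 111, 108 and 104 CPM in the 3 d libraries (log2 fold change -0.67 ± 0.0817 SE, adjusted p = 3.4e-07). Kif20a, a kinesin of the central spindle, averaged 160.1 ± 7.01 CPM at 10 d and 237 ± 10.5 CPM at 3 d (SD, n = 3 each). All 3 libraries at 10 d were below all 3 at 3 d in each of the 4 genes.

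Of 42 tested replication genes 20 fell and 2 rose, with a median of -0.21. The rises were 1 without 10 d replicate 2 and without 3 d replicate 2. Fen1, the flap endonuclease of lagging-strand synthesis, had 80.3, 82.5 and 91.9 CPM in the 10 d libraries, against 143, 150.4 and 149 CPM in the 3 d libraries (log2 fold change -0.80 ± 0.0826 SE, adjusted p = 2.82e-08). Mcm7, a subunit of the replicative helicase, averaged 203 ± 10.7 CPM at 10 d and 339 ± 9.0 CPM at 3 d. Tyms, thymidylate synthase, averaged 109.6 ± 15.8 CPM at 10 d and 184 ± 1.98 CPM at 3 d (SD, n = 3 each). Prim1, the catalytic subunit of primase, went the other way with 349, 395 and 336 CPM in the 10 d libraries, against 258, 262 and 274 CPM in the 3 d libraries (log2 fold change 0.45 ± 0.0658 SE, adjusted p = 4.95e-06). The other member to rise, Rfc4, a clamp loader subunit named after its value was seen, averaged 96.7 ± 11.2 CPM at 10 d and 84.8 ± 3.17 CPM at 3 d (adjusted p = 0.0332). Among 17 tested G1 cyclins and CDK inhibitors 3 rose and 6 fell. E2f7, a repressor of cell cycle genes, averaged 26.6 ± 1.31 CPM at 10 d and 44.3 ± 1.37 CPM at 3 d. Cdk2, a kinase of S phase entry, averaged 58.9 ± 1.67 CPM at 10 d and 82.7 ± 1.81 CPM at 3 d. Ccng2, a cyclin of non-dividing cells, averaged 165 ± 2.81 CPM at 10 d and 125 ± 5.11 CPM at 3 d (SD, n = 3 each).

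Promoters of the 3 mitotic genes with the smallest p that hold both boxes are shown because the list moved together. They were chosen after the values were seen. Capitals mark TTTGAA and CCAAT, or their reverse complements TTCAAA and ATTGG, on the strand of the gene, over the same window (RefSeq, GRCr8). No marked match overlaps another.
Spag5, chr10:63696586-63696885 (+): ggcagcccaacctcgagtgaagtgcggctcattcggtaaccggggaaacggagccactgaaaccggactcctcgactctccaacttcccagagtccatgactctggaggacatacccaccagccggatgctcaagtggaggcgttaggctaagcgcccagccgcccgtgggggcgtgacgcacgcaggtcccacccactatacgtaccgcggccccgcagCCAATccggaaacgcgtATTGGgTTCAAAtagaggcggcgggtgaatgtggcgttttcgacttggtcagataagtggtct
Plk1, chr1:186147408-186147707 (+): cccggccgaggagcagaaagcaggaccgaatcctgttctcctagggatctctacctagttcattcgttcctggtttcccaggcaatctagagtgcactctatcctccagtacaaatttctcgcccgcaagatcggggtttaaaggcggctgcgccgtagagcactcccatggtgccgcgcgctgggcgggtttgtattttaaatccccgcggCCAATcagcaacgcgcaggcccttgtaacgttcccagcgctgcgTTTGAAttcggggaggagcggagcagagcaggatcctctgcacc
Cdc20, chr5:137255750-137256049 (-): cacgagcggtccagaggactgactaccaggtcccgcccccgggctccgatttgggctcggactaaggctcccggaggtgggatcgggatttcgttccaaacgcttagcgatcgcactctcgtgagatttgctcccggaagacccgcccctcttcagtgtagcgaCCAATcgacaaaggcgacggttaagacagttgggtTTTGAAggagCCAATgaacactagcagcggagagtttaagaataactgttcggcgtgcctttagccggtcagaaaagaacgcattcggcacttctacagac

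Of the 28 mitotic promoters in the table, 20 held TTTGAA (71.4%), against 18.1% of all 27457 promoters and 10.8% of those of tested genes. CCAAT was in 22 of them (78.6%), against 37.7% of all promoters and 38.0% of those of tested genes. Both were present in 17, of which 13 belonged to genes that fell, a share similar to the 23 of 33 tested members of the list. Both were in 7.25% of all promoters, and their joint share among tested genes was not counted. The E2F-like words TTTCGCGC or TTTGGCGC were in 13 of 35 replication promoters (37.1%), against 0.841% of all promoters and 1.60% of those of tested genes.

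Histone genes moved against mitosis and replication. Of 22 tested, 17 rose and none fell, with a median of 0.59. Hist2h4, an H4 gene, had 553, 832 and 539.6 CPM in the 10 d libraries, against 365, 403 and 347 CPM in the 3 d libraries (log2 fold change 0.79 ± 0.127 SE, adjusted p = 1.6e-05). Hist1h2bd, an H2B gene, had 32.6, 65.3 and 42.1 CPM in the 10 d libraries, against 18.2, 24.4 and 28.4 CPM in the 3 d libraries (log2 fold change 0.99 ± 0.201 SE, adjusted p = 0.000285). In both, 10 d replicate 2 was the highest library, and without it 11 of the 22 rose. H1f0, the linker histone of non-dividing cells, did not share that spread, with 329, 334 and 352 CPM in the 10 d libraries, against 213, 227 and 217 CPM in the 3 d libraries (log2 fold change 0.63 ± 0.0547 SE, adjusted p = 1.49e-09). Clustered histone genes have near-identical copies, so the split of reads among them is uncertain.

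Genes of cytosolic ribosomal proteins rose by small amounts. Of 72 tested cytosolic ribosomal proteins 51 rose and none fell, with a median of 0.45. Rplp1, of the ribosomal stalk, had 533, 542 and 589 CPM in the 10 d libraries, against 313, 335 and 318 CPM in the 3 d libraries (log2 fold change 0.79 ± 0.0747 SE, adjusted p = 6.54e-09). Rplp0, its partner, averaged 2348 ± 29.2 CPM at 10 d and 1582 ± 62.6 CPM at 3 d. Rpl5, which binds 5S ribosomal RNA, averaged 407 ± 3.5 CPM at 10 d and 257 ± 17 CPM at 3 d. Rps24, of the small subunit, averaged 432 ± 5.88 CPM at 10 d and 273 ± 14.1 CPM at 3 d (SD, n = 3 each). Many ribosomal protein genes have processed copies that can share reads. Of 49 mitochondrial ribosomal proteins 14 rose and 4 fell, with 31 not called and a median of 0.048. The falls numbered 1 without 10 d replicate 1 and 2 without 10 d replicate 2. Mrps35, of the small subunit, averaged 25.2 ± 2.97 CPM at 10 d and 16.9 ± 0.402 CPM at 3 d. For ribosome biogenesis, 6 of 24 rose and 4 fell, with a median of 0.060. Npm1, nucleophosmin, averaged 550.2 ± 19.8 CPM at 10 d and 352 ± 19.1 CPM at 3 d. Utp20, of the small-subunit processome, averaged 143 ± 2.71 CPM at 10 d and 213 ± 4.05 CPM at 3 d (SD, n = 3 each).

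In energy metabolism, 18 of 30 tested glycolysis and hypoxia genes rose and 3 fell. Ldha, lactate dehydrogenase A, had 2659, 2796 and 2909 CPM in the 10 d libraries, against 1701, 1946 and 1659 CPM in the 3 d libraries (log2 fold change 0.66 ± 0.0664 SE, adjusted p = 1.88e-08). Bnip3, a mitophagy receptor, averaged 451 ± 17 CPM at 10 d and 243 ± 7.42 CPM at 3 d. Aldoc, a brain-type aldolase, averaged 57.9 ± 9.2 CPM at 10 d and 27.8 ± 1.05 CPM at 3 d. Pkm, pyruvate kinase, averaged 618 ± 33.6 CPM at 10 d and 437 ± 19.4 CPM at 3 d (SD, n = 3 each). Nuclear-encoded subunits of the respiratory chain rose in 18 of 46 cases and fell in 2, with a median of 0.100. The falls were 1 without 10 d replicate 1 and without 3 d replicate 2. Uqcrc2, of complex III, averaged 409.5 ± 3.99 CPM at 10 d and 314 ± 12 CPM at 3 d and rose, while Uqcrh, of the same complex, fell to 72.5 CPM at 10 d, against 100.3 CPM at 3 d (log2 fold change -0.47 ± 0.0934 SE, adjusted p = 0.000212). Of 35 lysosomal genes 13 rose and 2 fell. Ctsd, the protease cathepsin D, averaged 828 ± 24 CPM at 10 d and 592 ± 9.16 CPM at 3 d. Sort1, the sorting receptor sortilin, averaged 40.4 ± 2.08 CPM at 10 d and 67.2 ± 8.01 CPM at 3 d (SD, n = 3 each). Ctsd was among the rises and Sort1 among the falls.

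**Figure D3:**
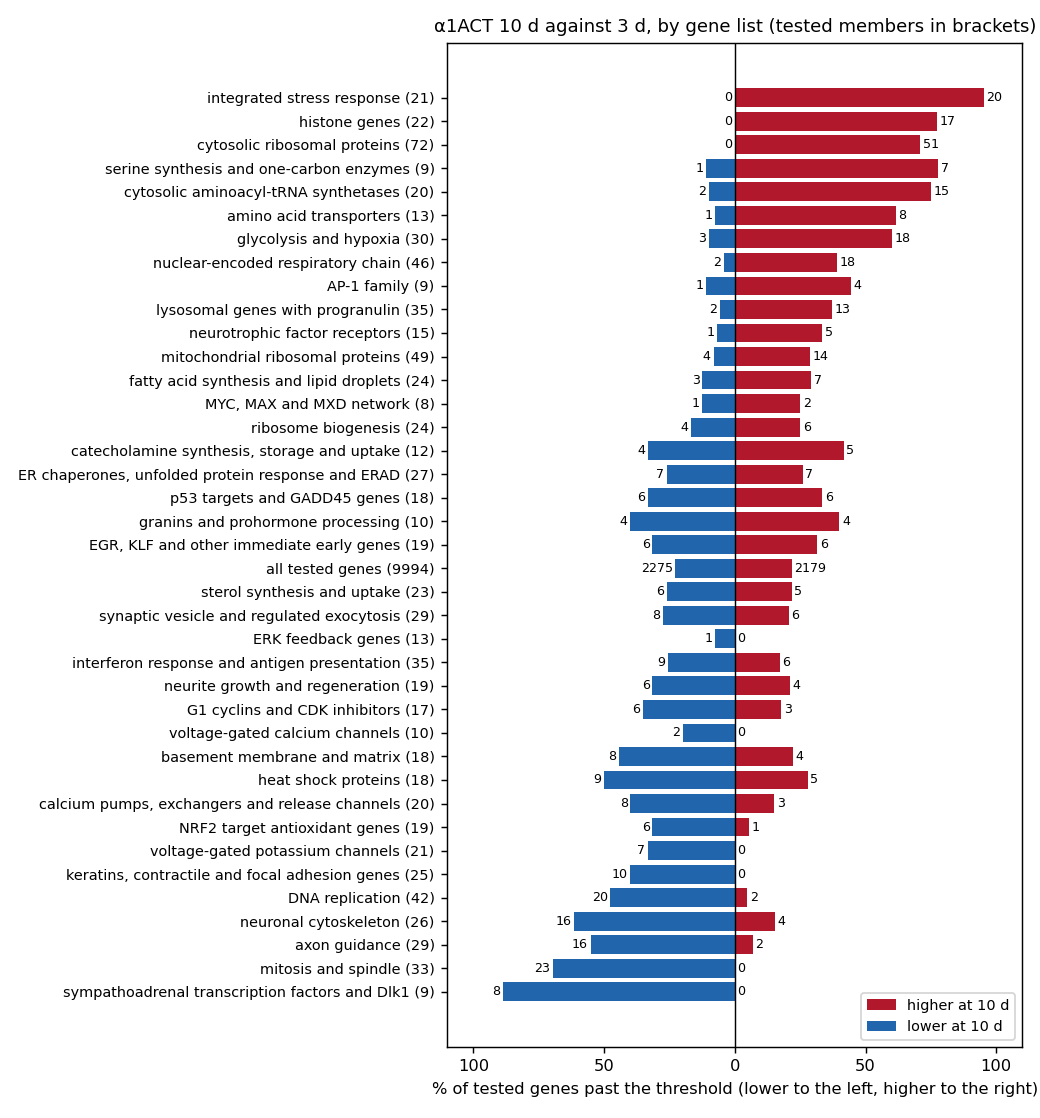
Percent of tested genes in each list past an adjusted p of 0.05, lower at 10 d to the left in blue and higher to the right in red, with the number of genes at each bar end and the number tested in brackets, beside the same for all tested genes. Lists are ordered by the balance of the 2 directions, from the integrated stress response (20 higher, 0 lower) to sympathoadrenal transcription factors and Dlk1 (0 higher, 8 lower).

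As the plot of lists shows, most lists had members in both directions. Those with members in a single direction were the stress response, histones and ribosomal proteins on the higher side. On the lower side they were the sympathoadrenal list (8 of 9), mitosis (23 of 33), keratins and contractile genes (10 of 25) and potassium channels (7 of 21). Calcium channels (2 of 10) and ERK feedback genes (1 of 13) also had falls alone, but at shares under the 22.8% over all tested genes. So few called genes can lie in 1 direction without the list moving together. With 1 library left out, 1 member in the other direction was called for mitosis, keratins and contractile genes, potassium channels, calcium channels, ERK feedback genes and ribosomal proteins. Each came with 1 to 3 of the 6 libraries left out in turn.

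Transcription factors of the sympathoadrenal lineage fell while tyrosine hydroxylase rose. Of 9 tested members of the list, which holds these factors and Dlk1, 8 fell and none rose, with a median of -0.58. Phox2a, a homeodomain factor of noradrenergic cells, had 245, 257 and 247 CPM in the 10 d libraries, against 448, 468 and 445 CPM in the 3 d libraries (log2 fold change -0.86 ± 0.0592 SE, adjusted p = 2.43e-11). Epas1, the hypoxia-inducible factor HIF-2α that marks chromaffin cells, had 309, 253 and 279 CPM in the 10 d libraries, against 686, 602 and 679 CPM in the 3 d libraries (log2 fold change -1.23 ± 0.0829 SE, adjusted p = 1.94e-11). Gata2, a zinc finger factor, averaged 504 ± 25.4 CPM at 10 d and 734 ± 27.2 CPM at 3 d (SD, n = 3 each). Hand2, the member that passed in neither direction, averaged 60.2 ± 5.54 CPM at 10 d and 70.5 ± 8.84 CPM at 3 d (adjusted p = 0.0771; named after its value was seen).

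Th, the rate-limiting enzyme of catecholamine synthesis, had 8183, 7972 and 8639 CPM in the 10 d libraries, against 5024, 5377 and 4946 CPM in the 3 d libraries (log2 fold change 0.69 ± 0.054 SE, adjusted p = 2.43e-10). In its list of 12, 5 rose and 4 fell, and the rises were 3 without 3 d replicate 2. Maoa, which oxidises catecholamines, averaged 226 ± 5.47 CPM at 10 d and 274 ± 16.5 CPM at 3 d and fell. Cyb561, the granule cytochrome, averaged 2540.1 ± 30.4 CPM at 10 d and 2185 ± 89.2 CPM at 3 d and rose (SD, n = 3 each). Of 10 granins and processing enzymes 4 rose and 4 fell. Chgb, chromogranin B, had 13277, 13413 and 14351 CPM in the 10 d libraries, against 9460.1, 10328 and 9208 CPM in the 3 d libraries (log2 fold change 0.50 ± 0.0821 SE, adjusted p = 2.12e-05). Vgf, a granule protein induced by neurotrophins, had 95.8, 91.7 and 118 CPM in the 10 d libraries, against 237, 319 and 177 CPM in the 3 d libraries (log2 fold change -1.26 ± 0.191 SE, adjusted p = 6.98e-06). Pam, which amidates peptides, averaged 334 ± 3.14 CPM at 10 d and 449 ± 17.9 CPM at 3 d. Scg5, a chaperone of a prohormone convertase, averaged 300.0 ± 11.4 CPM at 10 d and 233 ± 8.83 CPM at 3 d (SD, n = 3 each).

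Genes of axons and the neuronal cytoskeleton were mostly lower. Of 29 tested axon guidance genes 16 fell and 2 rose. Unc5c, a netrin receptor, had 93.9, 81.8 and 79 CPM in the 10 d libraries, against 177, 145 and 174 CPM in the 3 d libraries (log2 fold change -0.96 ± 0.0928 SE, adjusted p = 9.17e-09). Plxnb2, a semaphorin receptor, averaged 294 ± 18.2 CPM at 10 d and 489 ± 20.7 CPM at 3 d. Robo1, a Slit receptor, averaged 107 ± 8.9 CPM at 10 d and 174 ± 6.92 CPM at 3 d. These receptors fell, and Efnb1, an ephrin, rose at 153 ± 15.9 CPM at 10 d and 88.6 ± 2.86 CPM at 3 d (SD, n = 3 each). The count of falls was 10 without 10 d replicate 2 and 9 without 3 d replicate 1. The rises were 1 without 10 d replicate 3, 3 d replicate 2 or 3 d replicate 3. Of 26 cytoskeletal genes 16 fell and 4 rose. Map1b, a microtubule-associated protein of growing axons, had 1195, 992 and 1159 CPM in the 10 d libraries, against 2348, 2100.3 and 2155 CPM in the 3 d libraries (log2 fold change -0.98 ± 0.0792 SE, adjusted p = 4.28e-10). Nefm, a neurofilament subunit, had 38.4, 34.4 and 35.6 CPM in the 10 d libraries, against 82.4, 69.6 and 85.5 CPM in the 3 d libraries (log2 fold change -1.13 ± 0.113 SE, adjusted p = 1.65e-08). Prph, the peripheral intermediate filament peripherin, rose with 2024, 2197 and 2105 CPM in the 10 d libraries, against 1524, 1523 and 1533 CPM in the 3 d libraries (log2 fold change 0.47 ± 0.0529 SE, adjusted p = 1.14e-07).

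Lists of exocytosis, neurites and channels were mixed or moved in few members. Of 29 synaptic and exocytosis genes 6 rose and 8 fell, close to the shares over all tested genes (21.8% higher and 22.8% lower). Syt4, a synaptotagmin of dense-core vesicles, had 2791, 2814 and 2667 CPM in the 10 d libraries, against 1539, 1530.4 and 1633 CPM in the 3 d libraries (log2 fold change 0.81 ± 0.0823 SE, adjusted p = 1.87e-08). Unc13b, a vesicle priming factor, averaged 29 ± 1.29 CPM at 10 d and 53.1 ± 0.948 CPM at 3 d and fell. Cadps, which primes dense-core vesicles, averaged 93.6 ± 5.42 CPM at 10 d and 147 ± 5.0 CPM at 3 d and fell. Rab3c, a small GTPase of secretory vesicles, averaged 345 ± 17.9 CPM at 10 d and 241 ± 13.7 CPM at 3 d and rose (SD, n = 3 each). Of 19 neurite genes 4 rose and 6 fell. The rises were 2 without 10 d replicate 3, without 3 d replicate 2 and without 3 d replicate 3. Basp1, a growth cone protein, averaged 44.3 ± 1.07 CPM at 10 d and 68.7 ± 10.3 CPM at 3 d and fell. Among 21 potassium channel subunits 7 fell and none rose. Kcnq3, an M-current subunit, averaged 65.3 ± 4.38 CPM at 10 d and 94.6 ± 1.46 CPM at 3 d and fell. Of 20 calcium pumps, exchangers and release channels 3 rose and 8 fell. Itpr3, an IP3 receptor, averaged 49 ± 5.14 CPM at 10 d and 104 ± 8.99 CPM at 3 d. Atp2a2, the SERCA2 pump, averaged 433 ± 8.72 CPM at 10 d and 575 ± 13.8 CPM at 3 d. Stim1, a sensor of store calcium, averaged 92.2 ± 3.86 CPM at 10 d and 115 ± 3.37 CPM at 3 d (SD, n = 3 each). These 3 were among the falls. Of 15 neurotrophic receptors and adaptors 5 rose and 1 fell. Ret, a receptor of GDNF family ligands, averaged 212 ± 12.9 CPM at 10 d and 171 ± 21 CPM at 3 d. Ltk, a receptor tyrosine kinase, averaged 87.3 ± 7.82 CPM at 10 d and 57.9 ± 7.55 CPM at 3 d. Shc4, an adaptor, averaged 2.25 ± 0.227 CPM at 10 d and 0.678 ± 0.195 CPM at 3 d (SD, n = 3 each). These 3 were among the rises.

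Contractile and matrix genes fell more often than they rose. Of 25 keratin, contractile and focal adhesion genes 10 fell and none rose. Actn1, α-actinin, had 260.5, 255 and 278 CPM in the 10 d libraries, against 523, 509 and 529.6 CPM in the 3 d libraries (log2 fold change -0.98 ± 0.0627 SE, adjusted p = 7.02e-12). Lmna, the nuclear lamin A/C, averaged 299 ± 22.6 CPM at 10 d and 509 ± 15.6 CPM at 3 d. Pxn, paxillin, averaged 18.5 ± 1.83 CPM at 10 d and 31.4 ± 2.0 CPM at 3 d. S100a10, a partner of annexin A2, averaged 53.1 ± 3.16 CPM at 10 d and 89 ± 7.39 CPM at 3 d (SD, n = 3 each). The summed epithelial markers given above were also lower at 10 d. Of the 6 tested, 3 fell and none rose. Krt8 averaged 504 ± 29.1 CPM at 10 d and 713 ± 101 CPM at 3 d, and Epcam averaged 141 ± 5.03 CPM at 10 d and 219.7 ± 16.7 CPM at 3 d. Cdh1 averaged 0.617 ± 0.177 CPM at 10 d and 1.29 ± 0.222 CPM at 3 d (adjusted p = 0.0485), and its adjusted p was 0.0513 to 0.147 under 8 alternatives, among them leaving out each library other than 10 d replicate 3. Krt18, Cldn4 and Ocln did not pass, and Cldn4 averaged 43.1 ± 1.74 CPM at 10 d and 40.9 ± 1.43 CPM at 3 d (SD, n = 3 each; adjusted p = 0.456). In bulk RNA, fewer cells of a type and less RNA per cell cannot be told apart, and their part in this count was not tested. Of 18 basement membrane and matrix genes 4 rose and 8 fell. The rises were 2 without 10 d replicate 1 and without 3 d replicate 3. The laminin chain Lama5 averaged 36.8 ± 4.48 CPM at 10 d and 68.9 ± 4.82 CPM at 3 d and fell. The laminin chain Lamc1 averaged 58.1 ± 3.66 CPM at 10 d and 90.3 ± 4.96 CPM at 3 d and fell. Tgfbi, a secreted matrix protein, rose with 5.92, 5.51 and 5.16 CPM in the 10 d libraries, against 1.46, 1.68 and 2.1 CPM in the 3 d libraries (log2 fold change 1.67 ± 0.213 SE, adjusted p = 6.39e-07).

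Stress lists other than the amino acid response did not move in 1 direction. Of 27 genes of the endoplasmic reticulum 7 rose and 7 fell, close to the shares over all tested genes (21.8% higher and 22.8% lower). Herpud1, of ER-associated degradation, had 251, 262 and 240.3 CPM in the 10 d libraries, against 131, 143 and 135 CPM in the 3 d libraries (log2 fold change 0.88 ± 0.0698 SE, adjusted p = 3.2e-10). Dnajb9, an ER co-chaperone, averaged 227 ± 7.05 CPM at 10 d and 169 ± 9.5 CPM at 3 d and rose. Hyou1, an ER chaperone, averaged 406 ± 14.9 CPM at 10 d and 493 ± 6.64 CPM at 3 d and fell. Syvn1, the ubiquitin ligase of that pathway, averaged 49.5 ± 7.25 CPM at 10 d and 83.8 ± 3.32 CPM at 3 d and fell (SD, n = 3 each). Of 18 heat shock genes 5 rose and 9 fell. Hspb1, a small heat shock protein, had 51.7, 48.6 and 63.6 CPM in the 10 d libraries, against 133, 170.2 and 121 CPM in the 3 d libraries (log2 fold change -1.37 ± 0.118 SE, adjusted p = 1.18e-09). Bag3, a co-chaperone of small heat shock proteins, averaged 32.5 ± 6.34 CPM at 10 d and 71.7 ± 2.27 CPM at 3 d. Dnajb1, a co-chaperone of HSP70, averaged 113 ± 2.75 CPM at 10 d and 158 ± 1.24 CPM at 3 d. Hspa9, the mitochondrial member, averaged 511 ± 26.4 CPM at 10 d and 315 ± 3.42 CPM at 3 d and rose (SD, n = 3 each). Of 19 NRF2 targets 1 rose and 6 fell, the 1 being Sqstm1, an autophagy receptor, at 793 ± 18.6 CPM at 10 d and 661 ± 3.94 CPM at 3 d. Without 3 d replicate 2 the rises were 2. Hmox1, heme oxygenase 1, averaged 181 ± 29.6 CPM at 10 d and 272 ± 2.18 CPM at 3 d and fell. Slc7a11, which NRF2 can also induce, is described above with the transporters.

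Lipid genes moved in both directions. Of 23 sterol genes 5 rose and 6 fell, close to the shares over all tested genes (21.8% higher and 22.8% lower). Pmvk, an enzyme of the mevalonate pathway, averaged 97.3 ± 0.70 CPM at 10 d and 55.2 ± 3.78 CPM at 3 d and rose. Fdps, further along it, averaged 496 ± 26.7 CPM at 10 d and 327 ± 19.1 CPM at 3 d and rose. Srebf2, the regulator of the pathway, averaged 341 ± 3.56 CPM at 10 d and 439 ± 10.5 CPM at 3 d and fell. Without 10 d replicate 3 the falls numbered 11, and the rises were 3 without 10 d replicate 3, 3 d replicate 1 or 3 d replicate 3. Of 24 fatty acid and lipid droplet genes 7 rose and 3 fell. Fasn, fatty acid synthase, had 1138, 1137 and 1266 CPM in the 10 d libraries, against 1982, 1791 and 1890.3 CPM in the 3 d libraries (log2 fold change -0.68 ± 0.0602 SE, adjusted p = 2.05e-09). Scd1, the desaturase that follows it, rose with 789.5, 621 and 992 CPM in the 10 d libraries, against 219, 317 and 216 CPM in the 3 d libraries (log2 fold change 1.68 ± 0.193 SE, adjusted p = 1.39e-07). G0s2, an inhibitor of lipolysis, averaged 563 ± 43.4 CPM at 10 d and 327 ± 29.6 CPM at 3 d. Acsl4, an acyl-CoA synthetase, averaged 473 ± 28.9 CPM at 10 d and 338 ± 21.4 CPM at 3 d (SD, n = 3 each). Both were among the rises.

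Regulators of early responses, growth arrest and immunity were also mixed. Of 9 AP-1 genes 4 rose and 1 fell. Jdp2, a repressor of the family, had 34.8, 36.9 and 30.2 CPM in the 10 d libraries, against 14.8, 14.7 and 9.21 CPM in the 3 d libraries (log2 fold change 1.38 ± 0.116 SE, adjusted p = 7.68e-10), and Jun, a core subunit, had 33.6, 26.2 and 41.1 CPM in the 10 d libraries, against 55.5, 63.7 and 56.1 CPM in the 3 d libraries (log2 fold change -0.80 ± 0.133 SE, adjusted p = 2.44e-05). Of 19 other immediate early genes 6 rose and 6 fell. Klf4 averaged 17.8 ± 5.36 CPM at 10 d and 5.97 ± 0.491 CPM at 3 d and rose. Dusp1, a MAP kinase phosphatase gene, averaged 62.8 ± 16.4 CPM at 10 d and 32.1 ± 2.69 CPM at 3 d and rose. Klf10 averaged 54.8 ± 4.42 CPM at 10 d and 76.6 ± 4.39 CPM at 3 d and fell (SD, n = 3 each). Within the MYC network, 2 of 8 rose and 1 fell, with 2 falls without 10 d replicate 2. Myc averaged 17.5 ± 4.0 CPM at 10 d and 11.3 ± 0.962 CPM at 3 d and rose. Its antagonist Mnt averaged 28.9 ± 7.74 CPM at 10 d and 50.5 ± 6.48 CPM at 3 d and fell. Of 13 ERK feedback genes 1 fell, the ERK phosphatase gene Dusp5, at 3.7 ± 0.182 CPM at 10 d and 5.88 ± 0.774 CPM at 3 d. Of 18 p53 targets 6 rose and 6 fell. Bbc3, which encodes the pro-apoptotic protein PUMA, averaged 21.2 ± 1.51 CPM at 10 d and 15.6 ± 0.891 CPM at 3 d and rose. Apaf1, of the apoptosome, averaged 34.4 ± 2.34 CPM at 10 d and 53.6 ± 1.38 CPM at 3 d and fell. Of 35 interferon and antigen presentation genes 6 rose and 9 fell, near the shares over all tested genes (21.8% higher and 22.8% lower). B2m, the light chain of MHC class I, averaged 1876 ± 61.9 CPM at 10 d and 1337 ± 54.2 CPM at 3 d and rose. Tapbp, tapasin, averaged 106 ± 0.167 CPM at 10 d and 150.2 ± 0.969 CPM at 3 d and fell (SD, n = 3 each).

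Earlier work tied Cacna1a, Atp2b2, Btg1 and Grn to α1ACT. The transgene is human and had no row of its own, and whether its reads were counted at rat Cacna1a is not given in the sources used here. Cacna1a had 13.3, 13.1 and 13.6 CPM in the 10 d libraries, against 17.4, 15.5 and 18.9 CPM in the 3 d libraries (log2 fold change -0.37 ± 0.121 SE, adjusted p = 0.0158). The adjusted p was 0.0708 without 3 d replicate 3. Of the 10 voltage-gated calcium channel genes tested, Cacna1b, of N-type channels, was the other to fall, with 85.3, 79 and 88.8 CPM in the 10 d libraries, against 127, 106 and 109 CPM in the 3 d libraries (log2 fold change -0.44 ± 0.0825 SE, adjusted p = 0.000115). The falls in that list of 10 were 4 without 10 d replicate 1 and 1 without 3 d replicate 3. Atp2b2, a plasma membrane calcium pump, had 29.6, 23.8 and 27.2 CPM in the 10 d libraries, against 48.7, 39.2 and 41.7 CPM in the 3 d libraries (log2 fold change -0.69 ± 0.088 SE, adjusted p = 7.26e-07). Btg1, an antiproliferative gene, rose with 97.7, 93.4 and 94.9 CPM in the 10 d libraries, against 67.5, 66.4 and 72.7 CPM in the 3 d libraries (log2 fold change 0.47 ± 0.11 SE, adjusted p = 0.00105). Grn, which encodes progranulin, averaged 299.7 ± 4.06 CPM at 10 d and 322 ± 14.3 CPM at 3 d (SD, n = 3 each) and did not pass (adjusted p = 0.113). Among the 5 tested genes of the BTG and TOB family 3 rose and 1 fell. Btg2 is counted there as a rise, but its groups overlapped, with 84.7, 48.8 and 147 CPM in the 10 d libraries, against 49.6, 56.8 and 48.5 CPM in the 3 d libraries, and its adjusted p was 0.115 without 10 d replicate 3.

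Whether the change with time differed in the vector line was tested under each reading, with other libraries for each and none shared with the α1ACT comparison. By the labels, the comparison was vector 10 d against 3 d, in which 6419 genes passed (64.2%), 979 of them at least 2-fold (9.8%). The difference between the 2 changes, α1ACT minus vector, passed for 5215 genes (52.2%), 2589 positive and 2626 negative, and 948 of the differences were at least 2-fold (9.49%). By the file names, the vector line at 10 d and 24 h is in the libraries labelled α1ACT 24 h and α1ACT 6 h. Their comparison gave 4409 genes (44.1%), 314 of them at least 2-fold (3.14%). The difference between the 2 changes passed for 3 genes (0.03%), with 985 at an unadjusted p under 0.05. DESeq2 gave 78 for that difference. Leaving out any of the 12 libraries gave 0 to 5 genes, other than 119 without α1ACT 10 d replicate 2 and 222 without the library labelled α1ACT 24 h replicate 3.

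Under the file names, most genes that passed in the α1ACT line changed in the same direction in the vector line. Genes that passed in both in the same direction numbered 3269, which is 73.4% of the 4454 and 74.1% of the 4409, and 13 passed in opposite directions. Among the 4454, 96.1% had the same sign in the other comparison, and across the 9994 genes Pearson's r of the log2 fold changes was 0.812, a description, since genes are not independent replicates. The median standard error of the difference was 0.115 on the log2 scale, which limits what this test could call. Under the labels, 2169 genes passed in both in the same direction, 48.7% of the 4454 and 33.8% of the 6419, and 984 in opposite directions, with r of 0.389. Of the 4454 genes, 2763 differed between the lines by the labels (62.0%) and 3 by the file names (0.0674%).

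**Figure D4:**
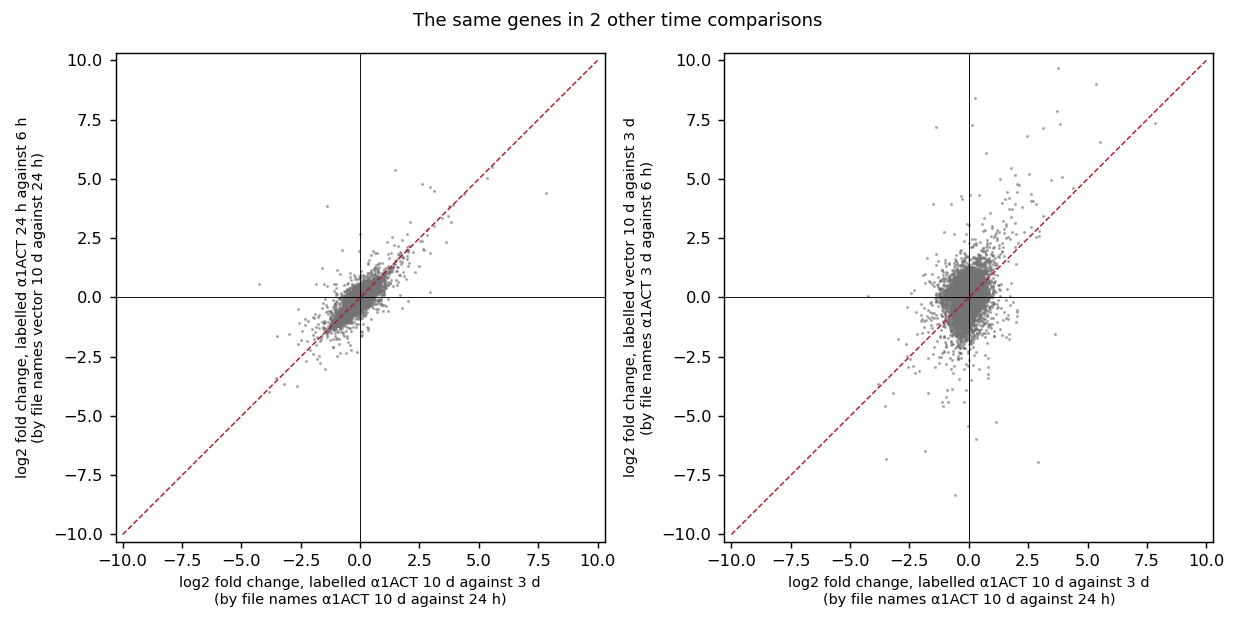
Log2 fold change of each of 9994 genes in α1ACT 10 d against 3 d (x axis), plotted against labelled α1ACT 24 h against 6 h, by file names vector 10 d against 24 h (left), and against labelled vector 10 d against 3 d, by file names α1ACT 3 d against 6 h (right). The dashed line marks equal change, and the points lie closer to it on the left (r = 0.812) than on the right (r = 0.389).

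The plot of the other time comparisons shows every tested gene, without a filter on significance.

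For the 24 largest changes, 24 passed in the same direction in the libraries that are vector 10 d and 24 h by file names, and none differed between the lines under that reading. Over all 4454 genes that passed, these shares were 73.4% and 0.0674%. By that reading Chac1 had a log2 fold change of 3.90 in α1ACT and 3.92 in vector, with a difference of -0.013 and a 95% interval of -0.56 to 0.53. For Lgals3 the log2 fold changes were -3.82 in α1ACT and -3.98 in vector, with a difference of 0.16 and an interval of -0.56 to 0.89. The intervals of low genes were wide, as for Rgs2, with a difference of 1.28 and an interval of 0.0098 to 2.56, so a line difference of more than 2-fold is within it. By the labels 15 of the 24 differed, a share near the 62.0% over all 4454 genes that passed. The 2 that passed in opposite directions under that reading were Rgs2, at 3.64 in α1ACT and -1.56 in vector, and Pcdh8, at -1.75 in α1ACT and 1.67 in vector.

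Under the file names 3 genes differed, Aspm, Cenpf and Kif22. All 3 stayed called with the other normalizations, without the filter, with DESeq2 and with the replicate block. They also stayed called without α1ACT 10 d replicate 2, α1ACT 3 d replicate 2 or the library labelled α1ACT 24 h replicate 3. Leaving out other libraries lost some or all of these calls. No gene was called without α1ACT 3 d replicate 1, without α1ACT 3 d replicate 3, or without replicate 2 of the libraries labelled α1ACT 24 h or α1ACT 6 h, with 701 to 943 genes at an unadjusted p under 0.05. Aspm, a spindle pole protein, had 174, 176 and 176 CPM in the 10 d libraries, against 248, 236 and 267 CPM in the 3 d libraries. In the libraries that are vector by file names it averaged 236 ± 13.6 CPM at 10 d and 228 ± 11.7 CPM at 24 h (SD, n = 3 each), and the difference of the log2 fold changes was -0.56 ± 0.0994 SE (adjusted p = 0.023). Cenpf, a kinetochore protein, averaged 126 ± 5.24 CPM at 10 d and 171 ± 15.5 CPM at 3 d, against 169 ± 12 CPM at 10 d and 145 ± 5.69 CPM at 24 h in those libraries, with a difference of -0.66 ± 0.103 SE (adjusted p = 0.0107). Kif22, a chromosome-binding kinesin, averaged 54.3 ± 3.37 CPM at 10 d and 69 ± 4.4 CPM at 3 d, against 67.2 ± 6.22 CPM at 10 d and 58.6 ± 1.44 CPM at 24 h in them, with a difference of -0.54 ± 0.0958 SE (adjusted p = 0.023). All 3 fell in the α1ACT line. In the libraries that are vector by file names, Cenpf rose by 0.22 on the log2 scale (adjusted p = 0.015) and Kif22 by 0.19 (adjusted p = 0.0202), while Aspm had 0.049 (adjusted p = 0.599). Of the 33 mitosis genes, 1 differed, and no gene of any other functional list did. The counts of each comparison were nevertheless unlike, though counts past a threshold do not test a difference between the lines. By file names, the median difference, α1ACT minus vector, was -0.48 for mitosis, -0.27 for replication and -0.57 for histones. Over all tested genes it was 0.0083. For mitosis none rose and 23 fell in α1ACT (median log2 fold change -0.34), while 15 rose and 3 fell in the libraries that are vector by file names (median 0.17). For replication 2 rose and 20 fell in α1ACT (median -0.21), while 11 rose and 4 fell in those libraries (median 0.087). For histones 17 of 22 rose in α1ACT (median 0.59) and 21 of 22 in those libraries (median 1.07). Over all tested genes 21.7% were higher and 22.4% lower in those libraries. Under the labels, by contrast, 29 of the 33 mitosis genes and 41 of the 42 replication genes had a positive difference, that is a smaller fall or a larger rise in α1ACT. The difference was negative for 22 of the 27 endoplasmic reticulum genes and 13 of the 21 stress response genes.

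Across all times, the leading genes ordered differently under the 2 readings. By the file names, Chac1 in the α1ACT line averaged 4.45 ± 1.18 CPM at 6 h, 4.68 ± 1.18 CPM at 24 h, 152 ± 10.8 CPM at 3 d and 70.9 ± 13.9 CPM at 10 d (SD, n = 3 each). By the labels it averaged 5.16 ± 0.541 CPM at 6 h, 78.2 ± 2.87 CPM at 24 h, 4.68 ± 1.18 CPM at 3 d and 70.9 ± 13.9 CPM at 10 d. The level at 10 d thus lay under that at 3 d by the file names and above it by the labels. Phox2a by the file names averaged 487 ± 10.1 CPM at 6 h, 454 ± 12.6 CPM at 24 h, 466 ± 43.7 CPM at 3 d and 249.8 ± 6.63 CPM at 10 d, the last of them below the other 3. Plk1 by the file names averaged 58.7 ± 2.6 CPM at 6 h, 69.9 ± 2.51 CPM at 24 h, 29.5 ± 4.53 CPM at 3 d and 33.3 ± 0.519 CPM at 10 d, where the last 2 did not differ beyond their spread. In distance over tested genes, the mean profile labelled α1ACT 10 d was nearest to that labelled α1ACT 24 h, at a root mean square of 0.215 log2 CPM, and that labelled α1ACT 3 d nearest to α1ACT 6 h, at 0.185.

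**Figure D5:**
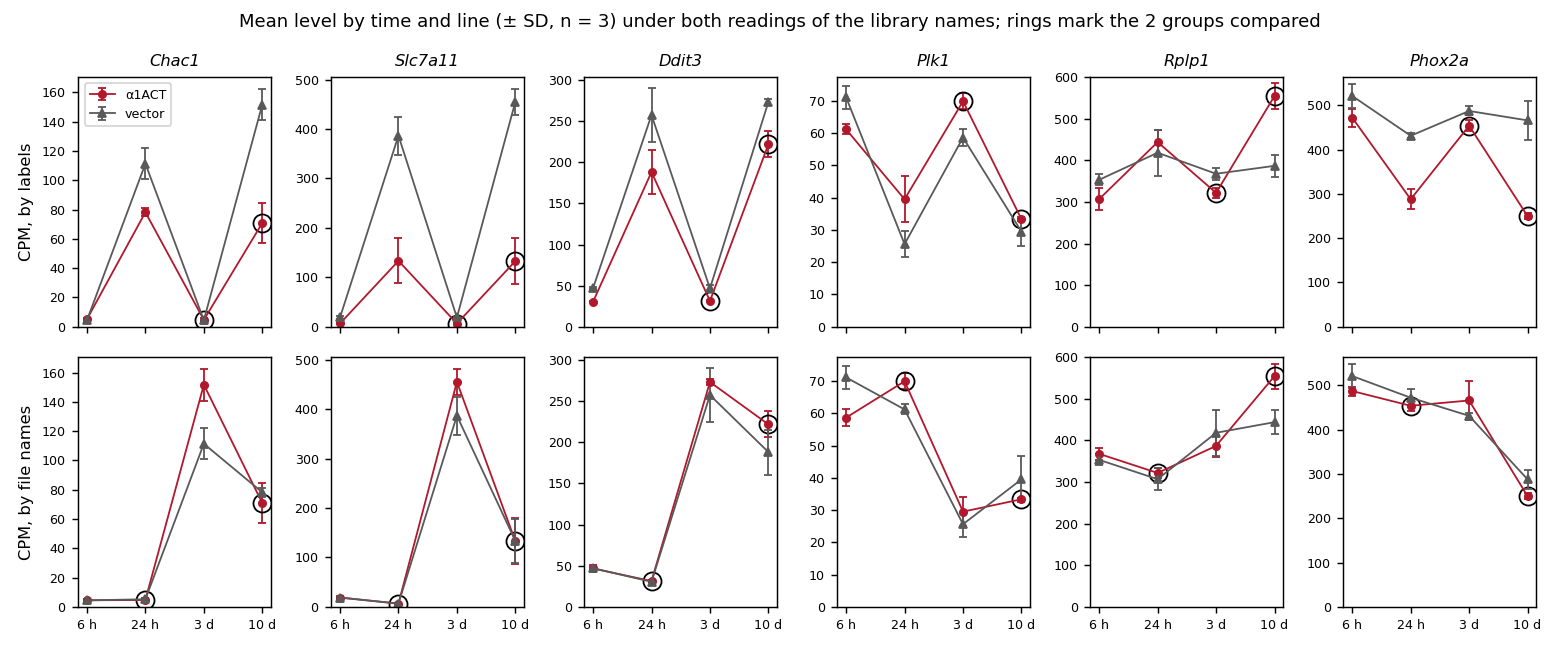
Mean CPM ± SD (n = 3) of 6 genes at 6 h, 24 h, 3 d and 10 d in the α1ACT line (red circles) and the vector line (grey triangles), with groups placed by the labels in the upper row and by the file names in the lower row. Rings mark the 2 groups compared here, which stand at 3 d and 10 d in the upper row and at 24 h and 10 d in the lower, and in the lower row the lines lie close together at most times.

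The plot of levels under both readings uses the same 24 libraries in each row, placed differently. The upper row shows a level that alternates with time for Chac1, Slc7a11 and Ddit3 in both lines.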

How the data were processed

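Total RNA of 24 libraries was sequenced after depletion of ribosomal RNA with a stranded kit, per the labels' protocols. The authors deposited raw counts per gene symbol for each library, with 5 summary lines that were left out here. The submitters' processing notes name HTSeq 0.5.4p5, TopHat2 2.0.10, Picard 1.117, edgeR and FastQC 0.11.2, with genome build rn5. Annotation and strand setting of the counting were not given in the sources used here, and reads of overlapping antisense genes may not be separated.

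Samples were grouped by the labels. Of 17055 genes per table, 13187 had counts and 9994 were kept by edgeR's filterByExpr on the groups (count 10, total 15). All 24 libraries entered 1 edgeR 4.0.16 fit in R 4.3.3 with 8 group coefficients, TMM factors (0.981 to 1.02) and 16 residual degrees of freedom. The quasi-likelihood test was adjusted by Benjamini-Hochberg over all tested genes and called at 0.05, and the biological coefficient of variation was 5.75%. SE is the log2 fold change divided by the square root of F. The fit was tested on simulated data. CPM are relative to the scaled library sizes, and 3 counts, the floor for a library, equal 0.236 to 0.346 CPM in the 6 libraries. Floors and intervals cover counting error only.

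Named genes were the 12 largest rises and 12 largest falls among called genes of mean level 2 CPM or more, no overlap between the groups and a gene name in place of an LOC or RGD identifier. To these were added the 4 members of each list with the smallest p, 4 genes of earlier work, and up to 4 genes per direction for each difference between lines, where the mean was over 12 libraries and the overlap over the 6. The gene lists and their members were chosen with earlier results of these data known. Alternatives were RLE factors, no factors, no filter, DESeq2 1.42.0, other sets of libraries, the replicate block and leaving out each library. Replicate pairs differed by more than sampling noise, at chi-square values of 2.0 to 11.7 per degree of freedom. Some named or marker genes are not reported here. Promoters came from RefSeq (GRCr8) by symbol, and 16568 of the symbols (97.1%) matched with synonyms.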

Additional observations from a re-analysis of the deposited data

Results flagged for a closer look

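The change with time differed from that of the vector line for 5215 genes by the labels and for 3 genes by the file names, each by edgeR's test of the difference itself. By the labels, positive differences, with a log2 fold change more positive in α1ACT than in vector, were 5.20 for Rgs2, 3.43 for Scd1, 3.24 for Dclk1 and 3.17 for Lrrn3 on the log2 scale. In Dclk1, a kinase of neuronal microtubules, the log2 fold change was -0.94 in α1ACT and -4.19 in vector, and in Lrrn3, a leucine-rich repeat protein of neurons, it was -0.70 in α1ACT and -3.87 in vector. Negative differences were -4.15 for Trim66, -3.42 for Pcdh8, -3.68 for Kif21b and -5.93 for Col4a1. Kif21b, a neuronal kinesin, averaged 6.08 ± 0.194 CPM at 10 d and 1.78 ± 0.558 CPM at 3 d (SD, n = 3 each). Col4a1, a basement membrane collagen, had 25 counts at 10 d and 2 at 3 d in all, a depth-scaled ratio of 15.6 with an exact 95% interval of 3.89 to 136 for counting error only, so its fitted difference depends on a level under the floor.

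By the file names, the differences were -0.66 for Cenpf, -0.56 for Aspm and -0.54 for Kif22. Their causes were not tested.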

How the results depend on the processing

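The count for 10 d against 3 d was 4454 and ran from 4220 to 4782 under the other normalizations, filters, tools and sets of libraries, and from 3793 to 4100 with a library left out. Without scaling factors 40.0% of the called genes were higher, against 48.9% with them, and the median of all genes shifted to -0.040. The difference by labels ran from 4844 to 5077 genes with a library left out and kept within 1.5 times of 5215 under the settings tried. The difference by file names was 112 genes without the filter, 78 with DESeq2 and 18 with the replicate block, and 0 to 222 with a library left out, beside 3; the cause was not tested.

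Replicate numbers were not taken as pairs, since same-numbered 10 d and 3 d libraries deviated together with correlations of 0.146, 0.184 and 0.0126, the last under 0.1. Replicates 1 and 2 at 10 d correlated best with their own number, and replicate 3 with 3 d replicate 1 (0.0292). Over the 28 pairs of groups, same-numbered libraries had correlations of -0.0791 to 0.176 for number 1, 0.0392 to 0.342 for number 2 and -0.0542 to 0.148 for number 3. With the replicate block 4675 genes passed between 10 d and 3 d and 5405 in the difference by labels.

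Without scaling factors, falls were 11 of the 27 endoplasmic reticulum genes, 7 of the 24 ribosome biogenesis genes, 5 of the 30 glycolysis genes, 4 of the 46 respiratory chain genes, 4 of the 35 lysosomal genes and 4 of the 10 calcium channel genes. Rises were then 1 of the 20 calcium handling genes and 1 of the 42 replication genes.

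Over 194 named genes, 2686 of 2710 values kept their direction and side of the threshold, 15 lost the call, 9 gained it and none reversed. The changed calls were in 10 genes: Cdh1, Cd68, Lrrn3, Cacna1a, Btg2, Spred3, Mxd4, Cacnb4, Cacna1c and Grn. Genes under about 1 CPM rest on few counts. The named genes were mostly picked for the smallest p of their list or for groups without overlap in these same libraries. Their stability was therefore largely fixed by the choice. Of all 4454 called genes, 3718 to 4439 were called again in the same direction, depending on the alternative.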

Other observations

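Among list members too low for a fitted fold change to be read, summed counts were compared after scaling for depth, with exact 95% intervals for counting error only. Sema3c, a secreted axon guidance cue, had 9 counts at 10 d and 95 at 3 d, 8.46 times more at 3 d (4.27 to 19.1). Mmp3, a matrix protease, had 3 at 10 d and 21 at 3 d, 5.61 times more at 3 d (1.67 to 29.4). Plaur, the urokinase receptor, had 7 at 10 d and 25 at 3 d, 2.86 times more at 3 d (1.20 to 7.84). In the other direction Gfra3, a GDNF family co-receptor, had 23 at 10 d and 7 at 3 d, 4.10 times more at 10 d (1.70 to 11.3), and Fgf21, a hormone induced by ATF4, had 22 at 10 d and 9 at 3 d, 3.05 times more at 10 d (1.35 to 7.53). These genes were named after their values were seen.

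Other promoter words were counted over the same 300 bases. The ER stress element, CCAAT with CCACG after a gap of 9 bases, was in 8 of 20 promoters of the endoplasmic reticulum list, against 0.0765% of all promoters. An interferon-type word, GAAA repeated after a gap of 2 bases, was in 19 of 29 interferon promoters, against 3.77% of all. CACGTG was in 9 of 25 lysosomal promoters, against 6.65% of all, TCACNCCAC in 0 of 16 sterol promoters, against 1.13%, and TGANTCA in 0 of 7 AP-1 promoters, against 7.33%. Among promoters of tested genes, the ER stress element was in 0.197%, the interferon-type word in 2.63% and CACGTG in 9.94%. TCACNCCAC was in 1.11% of them and TGANTCA in 4.76%. All these shares are descriptions of letters on either strand.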
